A study of Mus musculus with 4 samples.

Results

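Genes of lipopolysaccharide sensing were followed in virgin mouse mammary tissue with and without the microRNA miR-21, 8 in number: *Lbp*, *Cd14*, *Ly96*, *Tlr4*, *Tlr2*, *Myd88*, *Ticam1* and *Irak4*. They were chosen by name, and the 8 genes were all found, with 1 row each, among the 22483 named loci of the deposited RNA-Seq table. *Lbp* is one of the genes that the study lists as up regulated, so its difference was known when the 8 were chosen. The groups were *miR-21* +/+ mice and *miR-21* -/- mice, which carry a germline deletion of miR-21, so that every cell type of the gland lacks it. Both groups were 2 months old, of the mixed strain 129SV::FVB/N::C57BL/6, and were represented by 2 mice each. Poly(A) RNA of mammary gland tissue was sequenced as single-end reads. Each genotype has 1 value per gene, which the authors computed over both mice in FPKM (fragments scaled to the exon length and to the number of mapped fragments), so the spread between mice is not visible, every fold change below stands without a replicate check, and no test was run.

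Lipopolysaccharide (LPS) is the outer membrane glycolipid of Gram-negative bacteria. The secreted protein LBP draws single LPS molecules out of membranes and micelles and hands them to CD14, a membrane-anchored or soluble co-receptor, which loads them onto MD-2, the product of *Ly96*. MD-2 sits on the outer part of TLR4, and the loaded pair dimerizes and signals inside the cell through the adaptor MyD88 with the kinase IRAK4, or from endosomes through the adaptor TRIF, the product of *Ticam1*. TLR2 recognizes bacterial lipoproteins and uses MyD88 too. In the mammary gland this pathway is known for sensing Gram-negative bacteria in mastitis, and soluble CD14 is a component of milk.

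The sequences shown are those that tie *Lbp* to miR-21 in the study's own list of predicted targets: the mature microRNA as RefSeq gives it (GRCm38.p6, chr11:86584120-86584141, minus strand), with its seed (bases 2 to 8) in capitals, and the *Lbp* site of that list, found by its sequence in mm9 at chr2:158143530-158143552 on the plus strand, with the bases that pair with the seed in capitals.
mmu-miR-21a-5p: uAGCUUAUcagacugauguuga
*Lbp* predicted site: gaagcataacaacacATAAGCTc

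*Lbp* lies on the plus strand of chr2:158132229-158158588 (mm9) and its main coding transcript in GENCODE has 15 exons and 2525 nt. The predicted site fell in intron 6 of that transcript (chr2:158143337-158145407), 15036 bases before the transcript's end. Of the 5 annotated *Lbp* transcripts, 1 held the site in an exon. It is a retained-intron transcript whose last exon runs from 158143273 to 158144349. The 26360 bases of the locus held 2 matches to ATAAGCT on the transcribed strand, and 0 of them lay in exons of the main coding transcript. A match of these letters is a description of the sequence and not a binding site.

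The 3′ UTRs of the 8 genes were searched in the transcribed direction for ATAAGCTA (a match to the seed followed by A), ATAAGCT (a match to the whole seed), TAAGCTA (bases 2 to 7 followed by A) and TAAGCT (bases 2 to 7, which each longer match also holds). No 3′ UTR of the 8 genes, in any coding transcript, held ATAAGCT. The 1321 nt 3′ UTR of *Tlr4* held TAAGCTA at 1 place, and 8.85% of 1221 annotated 3′ UTRs of like length (within 1.2 times) held a 7-base match of either kind. The 902 nt 3′ UTR of *Lbp* held none of the 4 matches, and the share with a 7-base match among the 1173 of like length was 6.91%. The 6-base match TAAGCT was present in 1 copy in the 987 nt 3′ UTR of *Myd88*, where 18.7% of 1190 like ones held it, and in alternative 3′ UTRs of *Myd88* (921 nt), *Lbp* (773 nt), *Tlr4* (1182 nt) and *Irak4* (1913 nt). The main 3′ UTRs of *Cd14* (226 nt), *Ly96* (68 nt), *Tlr2* (147 nt), *Ticam1* (576 nt) and *Irak4* (1260 nt) held none.

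The table lists 9714 named loci above 5 FPKM in at least 1 genotype, the level the study set for reliable genes. Over these, 1.25% were at least 2-fold higher in *miR-21* -/- tissue and 1.48% at least 2-fold lower, and the median log2 fold change (*miR-21* -/- over *miR-21* +/+, plain ratio) was −0.03. The sums of the 2 columns were 759295 and 1175600 FPKM over all loci, and scaling them to equal sums moves each log2 fold change by −0.63. Equal sums over named loci move each by 0.10, and equal medians over named loci above 5 FPKM by 0.01. Named loci thus summed to slightly less in *miR-21* -/- tissue, and the higher total of that column lies in loci without a gene name. The row that holds *Mir21* also holds its host gene *Vmp1* and read 42.5 and 68.2 FPKM. The mature microRNA has no poly(A) tail and is not captured, so this row checks no genotype. Low values of 2805 loci with a single transcript piled up at 0.0206 FPKM × kb in the *miR-21* +/+ column and at 0.0250 in the *miR-21* -/- column. If that step is 1 fragment, the 8 genes rest on about 122 to 3233 fragments each. Only 34.3% and 32.2% of the low values lay within 0.1 of a whole multiple of the step, so reads were not recovered, and the 95% counting intervals given below are approximate. They cover counting error only and say nothing of the spread between mice.

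Of the 8 genes, 1 was at least 2-fold higher in *miR-21* -/- tissue, *Lbp*, and 0 were at least 2-fold lower. The shares over all named loci above 5 FPKM were 1.25% and 1.48%. *Tlr2* was not above 5 FPKM in either genotype and the other 7 were. In all, 5 of the 8 were higher and 3 lower, with a median log2 fold change of 0.22 (0.20 without *Lbp*). The share of higher loci was 43.1% over all named loci above 5 FPKM and 44.3% over those above 1 FPKM. Together they summed to 83.9 FPKM in *miR-21* +/+ and 123.9 FPKM in *miR-21* -/- tissue. *Lbp* and *Cd14*, the carrier and the co-receptor, made up 44.4% of the first sum and 60.3% of the second, while the other 6 summed to 46.6 and 49.2 FPKM.

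**Figure D1:**
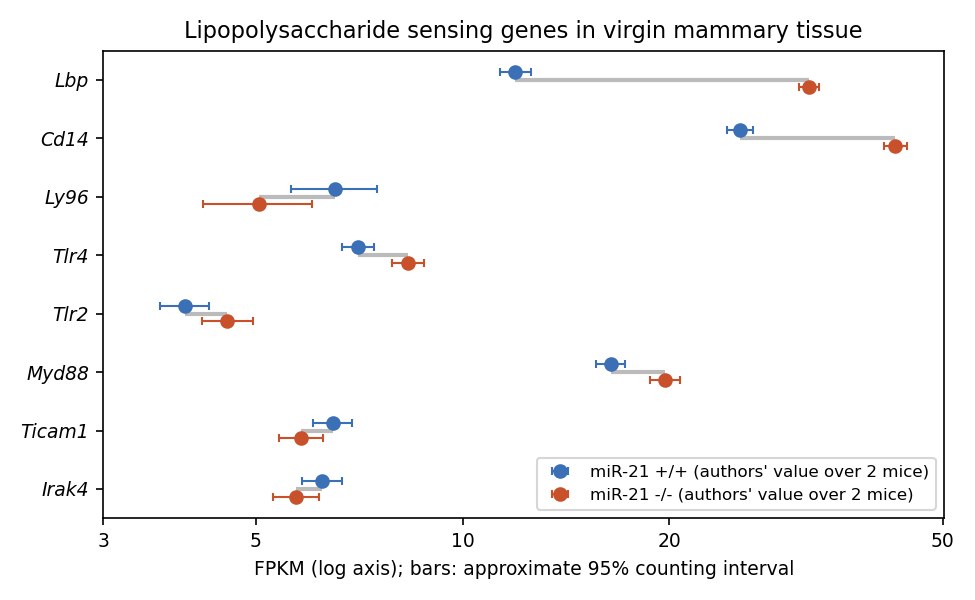
FPKM values (log axis) of the 8 genes in *miR-21* +/+ and *miR-21* -/- mammary tissue, each point being the authors' value over 2 mice and each bar the approximate 95% counting interval. *Lbp* (11.9 and 32.0 FPKM) and *Cd14* (25.4 and 42.7 FPKM) are the most widely separated pairs, and for *Ly96*, *Tlr2*, *Ticam1* and *Irak4* the bars overlap.

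*Lbp*, which encodes the secreted LPS carrier, read 11.9 FPKM in *miR-21* +/+ (counting interval 11.3 to 12.6) and 32.0 FPKM in *miR-21* -/- tissue (30.9 to 33.1). This is a 2.68-fold higher level in *miR-21* -/- tissue, a log2 fold change of 1.42 with a counting interval of 1.33 to 1.51. The intervals of the 2 levels were far apart, but they do not include differences between mice. Among the 9714 named loci above 5 FPKM, 48 had a higher log2 fold change and 1.33% lay as far from 0 or farther in either direction. Among the 3459 named loci whose *miR-21* +/+ level was within 1.5 times that of *Lbp* (7.96 to 17.9 FPKM), the log2 fold changes had a median of −0.02 and an SD of 0.33 across loci. Among these, 13 loci (0.376%, *Lbp* included) had a log2 fold change as high as that of *Lbp* or higher. With both columns scaled to equal sums over all loci the log2 fold change of *Lbp* was 0.79, under 2-fold.

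*Cd14* (minus strand, chr18:36884717-36886431) encodes the co-receptor that takes LPS from LBP. Its level was 25.4 FPKM in *miR-21* +/+ (24.2 to 26.5) and 42.7 FPKM in *miR-21* -/- tissue (41.1 to 44.3), 1.68-fold higher. The log2 fold change was 0.75, with a counting interval of 0.67 to 0.84. This was the second of the 8 in size and stayed under 2-fold. Of the named loci above 5 FPKM, 233 were higher and 4.99% lay as far from 0 or farther. *Cd14* was the most abundant of the 8 genes in both genotypes, and the *Lbp* level per unit of *Cd14* went from 0.471 in *miR-21* +/+ to 0.749 in *miR-21* -/- tissue.

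As deposited, the receptor pair at the membrane differed in opposite directions, each by less than 2-fold. *Tlr4* (plus strand, chr4:66488527-66508164), the signalling chain, read 7.04 FPKM in *miR-21* +/+ (6.68 to 7.42) and 8.34 FPKM in *miR-21* -/- tissue (7.90 to 8.79), a log2 fold change of 0.24. *Ly96* (plus strand, chr1:16678537-16699686), whose product MD-2 holds the lipid part of LPS, read 6.52 FPKM (5.63 to 7.51) and 5.05 FPKM (4.19 to 6.03), a log2 fold change of −0.37. Its transcript is the shortest of the 8 at 603 nt, its values rest on the fewest fragments, about 191 and 122, and its counting interval on the log2 scale, −0.70 to −0.04, is the widest. The intervals of the 2 *Ly96* levels overlapped and those of the 2 *Tlr4* levels did not. Of the named loci above 5 FPKM, 27.4% were as far from 0 as *Tlr4* or farther, and 16.5% as far as *Ly96* or farther. The *Tlr4* level over that of *Ly96* was 1.08 without and 1.65 with the deletion.

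*Cd14*, the co-receptor, was at 3.60 times the *Tlr4* level in *miR-21* +/+ and 5.12 times in *miR-21* -/- tissue. *Tlr2* (minus strand, chr3:83640193-83645530), the lipoprotein receptor, was the least abundant of the 8 in both genotypes, at 3.94 FPKM (3.63 to 4.28) and 4.54 FPKM (4.18 to 4.94), a log2 fold change of 0.20 with a counting interval of 0.04 to 0.37. The ratio of the 2 Toll-like receptors, *Tlr4* over *Tlr2*, was 1.79 and 1.83.

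Of the adaptors, *Myd88* (minus strand, chr9:119245106-119249158) was slightly higher and *Ticam1* (minus strand, chr17:56408885-56416190) slightly lower in *miR-21* -/- tissue. *Myd88*, the adaptor of most Toll-like receptors and of the interleukin-1 receptor family, read 16.4 FPKM (15.6 to 17.3) and 19.7 FPKM (18.8 to 20.7). Its log2 fold change was 0.26, and 25.0% of named loci above 5 FPKM were as far from 0 or farther. *Ticam1*, the adaptor of TLR3 and of endosomal TLR4, read 6.47 FPKM (6.06 to 6.90) and 5.82 FPKM (5.40 to 6.27), a log2 fold change of −0.15. *Irak4* (plus strand, chr15:94353071-94400076), the kinase that MyD88 recruits, read 6.24 FPKM (5.83 to 6.67) and 5.72 FPKM (5.29 to 6.18). Its log2 fold change of −0.12 was the smallest of the 8, and its counting interval, −0.27 to 0.02, included 0. The locus of *Irak4* has the same coordinates in the table as that of *Pus7l*, so the division of reads between these genes is uncertain. The level of *Myd88* was 2.54 times that of *Ticam1* in *miR-21* +/+ and 3.39 times in *miR-21* -/- tissue.

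Of the scalings, only the one that includes loci without a gene name changed the direction of any of the 8 genes. The higher total of the *miR-21* -/- column lies in those loci. With both columns scaled to equal sums over all loci, *Tlr4*, *Tlr2* and *Myd88* turned to lower values in *miR-21* -/- tissue, leaving 2 of the 8 higher and 6 lower, with a median of −0.41 beside the shift of −0.63 given to all loci. With equal sums or equal medians over named loci, 5 stayed higher and 3 lower.

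**Figure D2:**
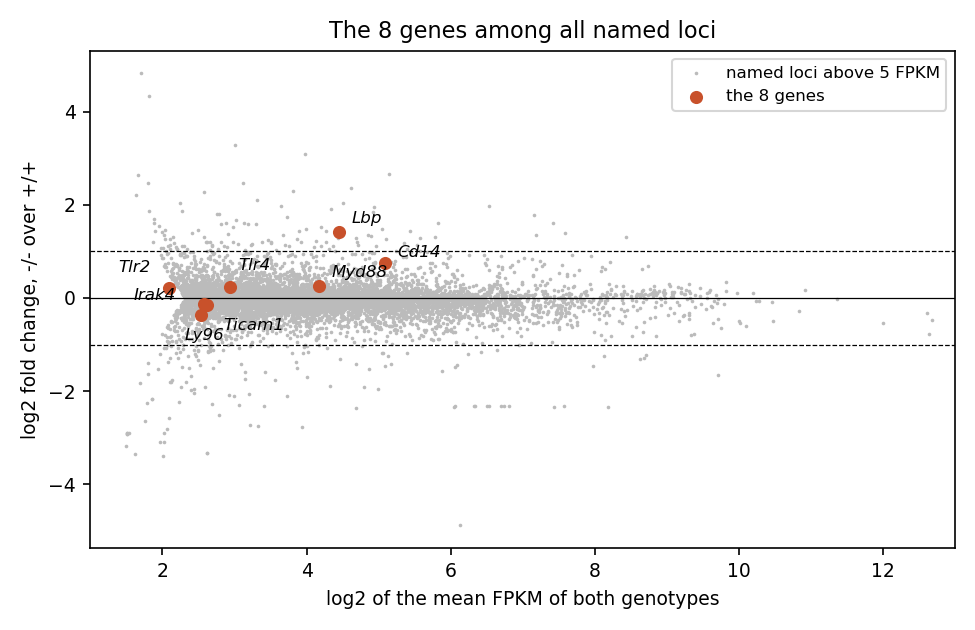
Log2 fold change (*miR-21* -/- over *miR-21* +/+) against the log2 of the mean FPKM for named loci above 5 FPKM in at least 1 genotype and above 0 in both (grey) and for the 8 genes (red), with dashed lines at 2-fold. *Lbp* at 1.42 is above the upper line, *Cd14* at 0.75 is under it, and the other 6 lie between −0.37 and 0.26.

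The order of the levels, which FPKM allows since it is per length of transcript, changed at 2 places. In *miR-21* +/+ tissue it ran from *Cd14* through *Myd88*, *Lbp*, *Tlr4*, *Ly96*, *Ticam1* and *Irak4* to *Tlr2*. In *miR-21* -/- tissue *Lbp* stood above *Myd88*, and *Ly96* stood below *Ticam1* and *Irak4*. The counting intervals of *Tlr4*, *Ly96* and *Ticam1* overlapped in *miR-21* +/+ tissue, as did those of *Ly96*, *Ticam1* and *Irak4*. In *miR-21* -/- tissue *Tlr4* stood clear of the genes below it, and *Ticam1*, *Irak4* and *Ly96* overlapped, as did *Ly96* and *Tlr2*. The *Cd14*, *Lbp* and *Myd88* levels did not overlap with each other or with another member in either genotype.

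The rest of the pathway, in 7 lists of genes written from general knowledge, was read over members above 1 FPKM in at least 1 genotype, where all 13565 named loci had a median of −0.03 and 44.3% were higher. With equal sums over all loci, which moves every gene by the same −0.63, the median of each of the 7 lists is below 0. With equal sums over named loci, 3 medians that were slightly below 0 turned slightly above it. They were those of the signal relay (0.056), the NF-kB and IRF genes (0.048) and the brakes on the pathway (0.013). Of 16 adaptors, kinases and ubiquitin enzymes that relay the signal, 5 were higher and 11 lower, with a median log2 fold change of −0.04 and a range of −0.36 to 0.27. The most abundant, *Tab2*, an adaptor of the TAK1 kinase, read 28.6 and 30.1 FPKM. The widest differences above 5 FPKM were those of *Peli1*, a ubiquitin ligase (10.9 and 8.51 FPKM, −0.36), and *Ikbke*, an IKK-related kinase (8.36 and 6.80 FPKM, −0.30). Of 13 genes of the NF-kB and IRF factors and their regulators, 4 were higher and 9 lower, with a median of −0.05 and a range of −0.49 to 0.19. The inhibitor *Nfkbia*, itself a target of NF-kB, was the most abundant at 41.9 and 39.6 FPKM, and *Irf5* (−0.29) and *Relb* (−0.25) differed most among those above 5 FPKM. No gene of these 2 lists reached 2-fold.

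The other Toll-like receptors and LPS-binding proteins had medians below 0 at this minimum but not at 5 FPKM, where the medians were 0.086 over 2 genes and 0.074 over 6. Of 10 other Toll-like receptor genes 8 were above 1 FPKM, 1 of them higher and 7 lower, with a median of −0.41. Above 5 FPKM were *Tlr5*, the flagellin receptor (5.49 and 6.24 FPKM, 0.18), and *Tlr3*, the receptor of double-stranded RNA (5.85 and 5.81 FPKM, −0.01). Of 10 other LPS-binding or LPS-processing genes 9 were above 1 FPKM, 3 higher and 6 lower, with a median of −0.42. *Pltp*, a phospholipid transfer protein of the same family as LBP, read 126.7 and 88.4 FPKM (−0.52). *Ly86*, the MD-2-like partner of CD180, read 18.9 and 12.9 FPKM (−0.56), and *Msr1*, a macrophage scavenger receptor, 2.83 and 5.13 FPKM (0.86). *Marco*, another scavenger receptor, read 1.49 and 0.178 FPKM (−3.07), and is named because it sets the end of the range, after its value was seen. *Bpi*, the closest relative of *Lbp*, was listed at 0 in *miR-21* +/+ and at 0.0266 FPKM in *miR-21* -/- tissue.

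Of 11 brakes on the pathway 4 were higher and 7 lower, with a median of −0.09 and a range of −0.59 to 1.08. The phosphatase gene *Dusp1* was the most abundant at 23.9 and 20.5 FPKM (−0.22). *Atf3*, a transcription factor that LPS induces and that limits cytokine genes, was the member at 2-fold or more (2.58 and 5.46 FPKM, 1.08), and *Sigirr*, an inhibitory receptor of the interleukin-1 receptor family, read 5.11 and 3.60 FPKM (−0.50). Of 19 genes that LPS induces in macrophages and other cells, 6 were above 1 FPKM in at least 1 genotype. They were 5 higher and 1 lower with a median of 0.46, which was 0.21 over the 4 above 5 FPKM. The rest of the 19 were under 1 FPKM in both genotypes. All 19 summed to 43.8 FPKM in *miR-21* +/+ and 36.1 FPKM in *miR-21* -/- tissue, lower where the median was higher. The chemokine genes *Ccl2* (1.81 and 5.54 FPKM, 1.61) and *Ccl5* (21.5 and 4.97 FPKM, −2.11) were those at 2-fold or more, in opposite directions. *Ccl5* is also made by T and NK cells. Of 14 acute phase genes, the class of blood proteins to which *Lbp* belongs, 7 were above 1 FPKM, 2 higher and 5 lower with a median of −0.37. Haptoglobin (*Hp*) was the most abundant at 219.7 and 269.9 FPKM (0.30), while the fibrinogen chain gene *Fgb* (26.8 and 3.94 FPKM, −2.77) and *Orm2* (10.2 and 6.86 FPKM, −0.57) were lower.

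**Figure D3:**
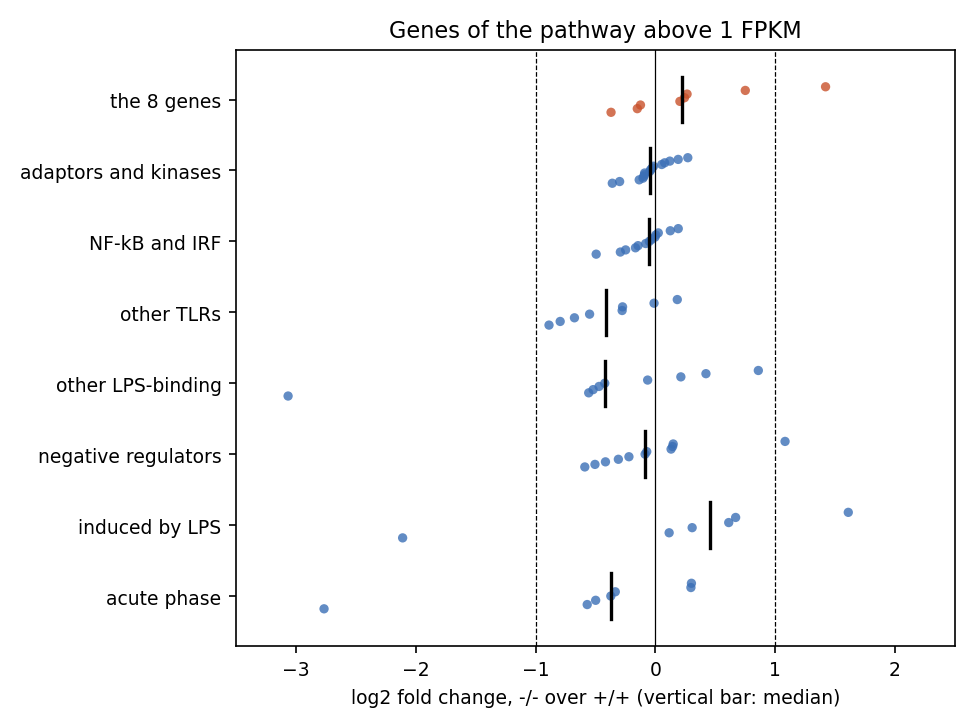
Log2 fold change (*miR-21* -/- over *miR-21* +/+) of each gene above 1 FPKM in at least 1 genotype, by list, with the median as a vertical bar and dashed lines at 2-fold. The 2 lists of signal relay and transcription factors are bunched around their medians of −0.04 and −0.05, while *Lbp* at 1.42 stands apart from the other 7 sensing genes.

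Tissue RNA mixes many cell types, and in such bulk samples fewer cells of a type and less RNA per cell cannot be told apart. Epithelial, adipocyte and fibroblast markers, which a mammary gland should hold, were all above 5 FPKM in both genotypes. Beside the higher *Lbp* and *Cd14* values, the summed level of 6 luminal epithelial markers was 603.5 FPKM in *miR-21* +/+ and 822.8 FPKM in *miR-21* -/- tissue, with 6 of 6 higher and a median of 0.52. The most abundant, *Krt19*, read 223.4 and 247.0 FPKM (0.15), and the widest differences were those of *Elf5* (18.6 and 36.0 FPKM, 0.95) and *Krt8* (119.1 and 196.7 FPKM, 0.72). For 4 myoepithelial markers with a row of their own the sum was 275.0 and 442.1 FPKM, with 4 of 4 higher and a median of 0.66. Among them *Acta2* read 222.0 and 341.4 FPKM (0.62), *Trp63* 5.74 and 9.30 FPKM (0.70) and *Oxtr*, the oxytocin receptor gene, 17.5 and 48.7 FPKM (1.47), which is more than 2-fold and a wider difference than that of *Lbp*. Skeletal muscle markers, 5 of 5 higher, summed to 1021 and 1683 FPKM (*Acta1* 0.68, *Myh4* 0.93, *Tnnt3* 0.89). With equal sums over all loci the median of the luminal markers turned to −0.11, and those of the myoepithelial and skeletal muscle markers were 0.028 and 0.050.

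Ratios between 2 genes do not depend on the scaling, and were taken over every marker above 1 FPKM with a row of its own. Of the 9714 named loci above 5 FPKM, 9665 had a lower log2 fold change than *Lbp* and 9480 a lower one than *Cd14*. Nearly any locus thus gives a higher ratio in *miR-21* -/- tissue, and the counts of higher ratios say little about the markers. *Lbp* relative to the luminal markers was higher in *miR-21* -/- tissue for 6 of 6, by 0.47 (over *Elf5*) to 1.28 (over *Krt19*) on the log2 scale. Relative to the myoepithelial markers it was higher for 3 of 4, from −0.05 over *Oxtr* to 0.90 over *Krt5*. Relative to skeletal muscle markers *Lbp* was higher for 5 of 5, by 0.49 to 0.94, and *Cd14* for 3 of 5, from −0.18 to 0.27. For *Cd14* the log2 differences ran from −0.20 (*Elf5*) to 0.61 (*Krt19*) over luminal markers, 5 of 6 of them above 0, and from −0.72 (*Oxtr*) to 0.23 (*Krt5*) over myoepithelial markers, 3 of 4 above 0.

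*Cd14* is well known as a monocyte and macrophage gene. Of 7 macrophage markers with a row of their own, 3 were higher and 4 lower, the median was −0.04, and they summed to 557.6 and 496.2 FPKM. With equal sums over named loci their median was 0.054. *Lyz2*, the most abundant, read 380.5 and 319.3 FPKM (−0.25), and *Fcgr1* (3.64 and 5.11 FPKM, 0.49) and *Cd163* (35.6 and 26.0 FPKM, −0.45) differed most, in opposite directions. *Cd14* relative to these 7 markers was higher in *miR-21* -/- tissue for 7 of 7, by 0.26 (over *Fcgr1*) to 1.2002 (over *Cd163*) on the log2 scale, and *Lbp* by 0.93 to 1.87. The count is not particular to macrophage markers, since 9480 of the 9714 named loci above 5 FPKM had a lower log2 fold change than *Cd14*. Of the neutrophil markers, 5 of 7 were above 1 FPKM, 2 higher and 3 lower (*Ly6g* was not analysed here). The 7 summed to 13.2 and 16.9 FPKM, a direction set by *Retnlg* (6.10 and 12.1 FPKM, 0.99), since the other 6 summed to 7.05 and 4.81 FPKM.

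LBP in blood comes mostly from the liver. Of 5 hepatocyte markers, *Alb* read 16.6 and 17.0 FPKM, *Apoc3* 3.53 and 2.15 FPKM, and *Ttr*, *Apoa1* and *Ahsg* were under 0.2 FPKM in both genotypes. Adipocyte markers were lower in 5 of 6, with a summed level of 10643 and 7817 FPKM (*Fabp4* −0.48, *Cidec* −0.54), and the leptin gene *Lep* was higher at 27.7 and 67.9 FPKM (1.29). *Lbp* relative to the adipocyte markers was higher for 6 of 6, by 0.13 (over *Lep*) to 1.9595 (over *Cidec*). For *Cd14* this held for 5 of 6, from −0.54 (over *Lep*) to 1.29 (over *Cidec*). Here too nearly all named loci would give a higher ratio. Lymphocyte markers were lower in 4 of 4 B cell genes, which summed to 27.1 and 4.29 FPKM, and in 4 of 4 T cell genes, which summed to 20.8 and 4.57 FPKM. Endothelial (117.9 and 122.8 FPKM) and fibroblast markers (2623 and 2477 FPKM) were close to level, between −0.18 and 0.19, with 2 of 4 higher in each list. Epithelial, muscle, fat and lymphocyte markers thus differed between the same 2 columns as *Lbp* and *Cd14*, and their part in the *Lbp* and *Cd14* values was not tested.

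**Figure D4:**
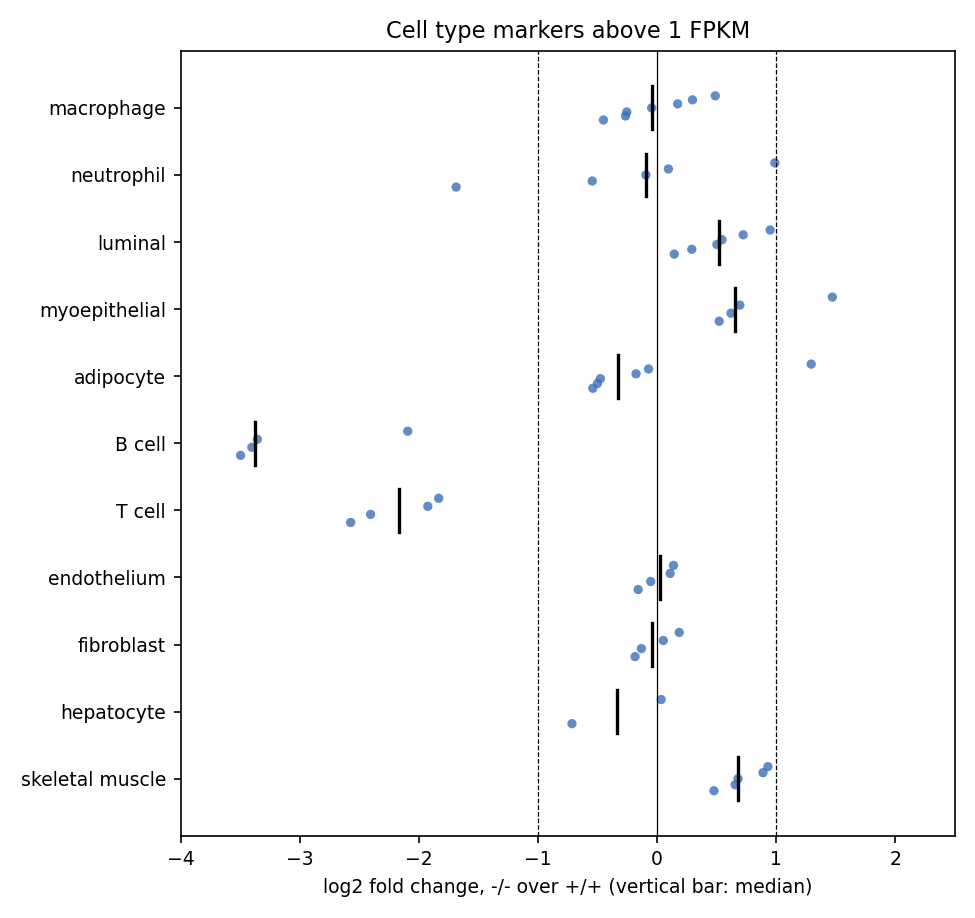
Log2 fold change (*miR-21* -/- over *miR-21* +/+) of cell type markers above 1 FPKM in at least 1 genotype, by list, with the median as a vertical bar and dashed lines at 2-fold. Markers that share a row with another gene are left out. As deposited, luminal, myoepithelial and skeletal muscle markers are all above 0 (with equal sums over all loci the luminal median is −0.11), B and T cell markers are all below −1, macrophage markers lie on both sides of 0, and endothelial and fibroblast markers lie between −0.18 and 0.19.

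Genes beside *Lbp* on chromosome 2 were read to see whether the higher value was shared by the region. Within 500 kb of either end of *Lbp* the table holds 20 other named loci, 14 of them above 1 FPKM, with a median log2 fold change of 0.02. The nearest relative, *Bpi*, lies 22.0 kb before *Lbp*. The closest of the 14, *9430008C03Rik* (6.54 and 6.94 FPKM, 0.09) and *Snhg11* (18.0 and 20.9 FPKM, 0.22), lie 20.8 kb and 42.8 kb beyond its end. A single neighbour was at 2-fold or more, *Tgm2*, which encodes tissue transglutaminase, with 82.2 and 208.9 FPKM (1.35) at 160.1 kb before *Lbp*. The other 13 lay between −0.59 (*Ppp1r16b*, 3.20 and 2.12 FPKM) and 0.67 (*Arhgap40*, 4.999 and 7.95 FPKM). *Ppp1r16b*, which sets the lower end, is a locus that the authors' output marks as failed. *Adig*, an adipocyte gene, read 128.2 and 142.5 FPKM, and *Rprd1b* 11.6 FPKM in both.

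**Figure D5:**
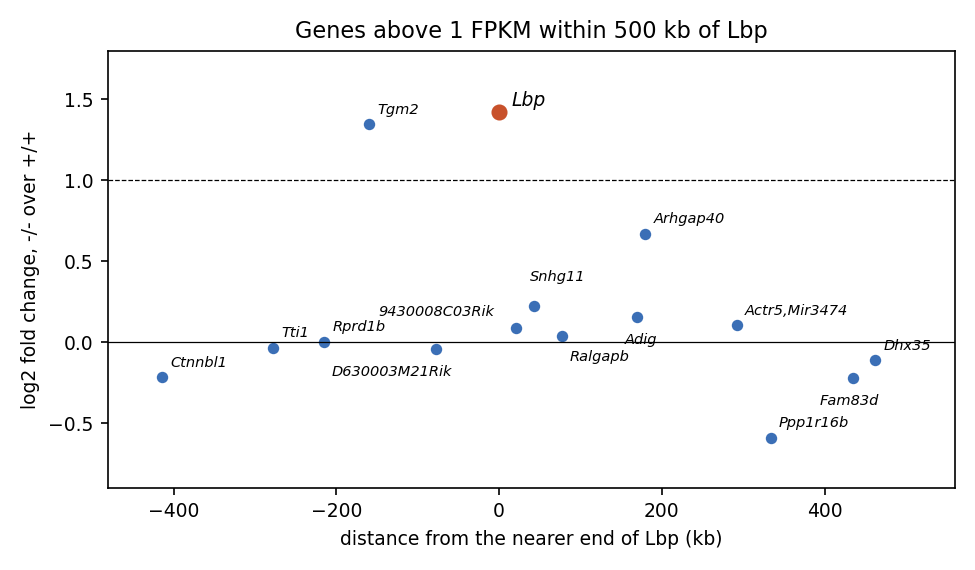
Log2 fold change (*miR-21* -/- over *miR-21* +/+) of *Lbp* (red) and of the 14 named loci above 1 FPKM within 500 kb of it (blue), against distance from the nearer end of *Lbp* in kb, with a dashed line at 2-fold. *Lbp* (1.42) and *Tgm2* (1.35) lie above the line and the other 13 loci lie between −0.59 and 0.67. The locus at −0.59, *Ppp1r16b*, is marked as failed in the authors' output.

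The named loci most like *Lbp* in its pair of levels were found by the distance between their log2 FPKM values in the 2 genotypes, over 12965 loci above 1 FPKM in both. The nearest was *Pdlim3* on chromosome 8 (11.5 and 31.3 FPKM, distance 0.055). *Mfap4* on chromosome 11 followed with 12.6 and 30.8 FPKM (0.096). The next were *C230081A13Rik* on chromosome 9 (13.1 and 28.4 FPKM), *Ctgf* on chromosome 10 (11.7 and 26.9 FPKM) and *Il4ra* on chromosome 7 (10.4 and 28.2 FPKM). None lies on chromosome 2, and a likeness over 2 values per gene says only that the levels are near each other.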

How the data were processed

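Poly(A) RNA of mammary tissue from 4 mice, 2 per genotype, was sequenced. Per the labels and the study's methods the authors aligned reads to mm9 with TopHat and deposited 1 Cuffdiff table with an FPKM value per genotype. Versions, gene annotation and normalization options are not given in the sources used here. The table's fold changes, test statistics, p-values, q-values and significance marks are the authors' own comparison and were not used. The table has 0 columns of values per mouse, so the limma fit planned for such columns was not run.

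Members are rows whose gene name matches, and the row of highest mean FPKM was to be kept for repeated names. Members and lists were chosen with earlier results of these data known. Fold changes are plain ratios without a pseudocount. A locus was counted at 2-fold or more if above 5 FPKM in at least 1 genotype, and lists used a minimum of 1 FPKM. The rule for named genes took the members, each list's most abundant locus and its 2 widest differences above 5 FPKM, the 5 loci nearest to *Lbp* in level and those within 500 kb of it. It was not followed for every list: B cell, T cell, endothelial and fibroblast markers are given as sums, and *Krt5*, *Apoc3*, *Ttr*, *Apoa1*, *Ahsg* and *Marco* are named outside it, after their values were seen. List members that share a row with another gene, microRNA genes aside, were left out of medians, sums and ratios. The ratios over markers were added after the data were seen. Counting intervals (95%, Poisson) took the fullest step of low values as 1 fragment and the longest coding transcript. Transcripts and sequences come from the mm9 assembly with GENCODE vM1. Scripts, tested on simulated data, used Python 3.11.15, numpy 2.4.6, pandas 2.3.3, scipy 1.17.1 and matplotlib 3.10.9. Alternatives were other scalings, pseudocounts, sums over all rows of a name, minimums, fold limits and leaving out failed loci.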

Additional observations from a re-analysis of the deposited data

How the results depend on the processing

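The values rest on 1 pooled value per genotype, so the spread between mice, and whether 1 mouse decides a value, cannot be seen. No paired analysis was possible because each genotype has only 1 pooled column. The replicate block and leaving out each mouse in turn were not run for the same reason. Small values are limited by counting, most of all for *Ly96*.

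*Lbp* stayed higher in *miR-21* -/- tissue under each alternative run. Scaling both columns to equal sums over all loci gave *Lbp* 0.79, left 0 of the 8 genes at 2-fold higher and put 1, *Ly96* at −1.001, at 2-fold lower. It moved the list medians to −0.67 (signal relay), −0.68 (NF-kB and IRF), −1.04 (other Toll-like receptors), −1.05 (other LPS-binding), −0.72 (brakes), −0.17 (genes induced by LPS) and −1.003 (acute phase), and the named loci to 19 higher and 893 lower. Equal sums over named loci gave *Lbp* 1.52 and turned the medians of signal relay, NF-kB and IRF, and brakes to 0.056, 0.048 and 0.013. Adding 1 FPKM moved the medians of other Toll-like receptors, other LPS-binding genes and genes induced by LPS to −0.31, −0.30 and 0.32. A minimum of 5 FPKM moved them to 0.086, 0.074 and 0.21. At 1.5-fold 2 of the 8 genes were higher (*Lbp* and *Cd14*), with 374 named loci higher and 421 lower, and at 3-fold 0, with 36 and 67. Named loci higher and lower were 283 and 347 at a minimum of 1 FPKM, 865 and 918 with no minimum, and 58 and 58 with 5 FPKM in both genotypes. Of 48 values of single genes 38 moved by less than their counting interval, and of 49 list medians 36 by at most 0.1. The 48 include, for each of the 8 genes, the sum over all rows of its name, which cannot move because each has 1 row. The scalings move every gene by 1 fixed amount by construction, and a pseudocount draws low values toward 0. A different minimum alters which genes enter a list or a count, and a different fold limit alters which loci are counted.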
